A study of Mus musculus with 3 samples.

Results

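The comparison concerns the basal cells of the dorsal skin epithelium of the mouse embryo, parted by transcripts of the proliferation genes Mki67, Top2a and Ccnb1. Members were selected on the measured UMIs of these genes, so values of those genes are no finding. Basal cells were taken by rule from the total epithelium library: fewer than 15 UMIs (unique molecular identifiers, each marking 1 captured RNA molecule) of the suprabasal genes Krt1, Krt10 and Krtdap together, and fewer than 2 of the placode genes Dkk4, Edar, Fgf20, Bmp2 and Ltb together, per 10000 UMIs of the cell. Of the 1593 cells left in that library after called doublets, and the 4683 cells of the series, 1090 met this rule. Among them 478 cells had 5 or more UMIs of Mki67 and Top2a together and are called cycling, and 91 cells had 0 UMIs of Mki67, Top2a and Ccnb1. The other 521 cells, with some transcripts of these genes, lay in between.

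All embryos were wild type (WT), of the strain C57BL/6JOlaHsd, at E14.5, counted in days of gestation, when the first hair follicle placodes form. Epithelial sheets of 3 to 4 littermates were pooled for each sample, stained for MAdCAM-1, a surface protein of placode cells, and sorted live before 10x Genomics 3′ single-cell RNA sequencing. There was 1 library of total epithelium, which holds both classes compared here, and 2 libraries of MAdCAM-1-positive, placode-enriched cells from separate biological replicates. Since the cells of 1 library are not replicates, the total epithelium values carry counting intervals and no test. The same rule was applied to the placode-enriched libraries, and there the difference was tested between cells parted by the same 3 genes. Those cells were chosen on their own UMIs of these genes. Calls of genes that vary with the 3 genes are therefore not independent of the rule.

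The basal layer of the epidermis sits on the basement membrane, carries the keratins Krt5 and Krt14 under the transcription factor Trp63, and supplies all new cells of the skin epithelium. A dividing cell licenses replication origins with the Mcm helicase in G1, copies its DNA in S phase, and then makes the cyclins, kinases, kinetochore and spindle proteins of G2 and mitosis. E2F factors drive the genes of the first wave, while B-Myb (Mybl2) and Foxm1 act with the MuvB complex on the genes of the second. Mki67, Top2a and Ccnb1 belong to the second wave, so their absence does not tell a cell outside the cycle from one in G1.

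The cycling cells held a median of 27092 UMIs each (14254 to 57074), the in-between cells 19859, and the cells without the 3 markers 17233 (5857 to 24582). Each cell was therefore thinned to 10000 UMIs, which kept 478 cycling cells and 87 cells without the markers, 4 shallower ones being left out. At equal depth the median number of genes detected was 3021 in cycling cells and 2934 in cells without the markers. Mitochondrial transcripts made up a median of 2.64% of the UMIs in cycling cells and 2.91% in cells without the markers, and ribosomal protein transcripts 29.7% and 32.3%. Levels are given as CPM, the summed UMIs of a gene in a class scaled to a common total, and each ratio is cycling over marker-negative cells with an exact 95% interval that covers counting error only. Both classes held basal transcripts: Krt14 stood at 3067 CPM in cycling cells and 3269 CPM in cells without the markers, and Trp63 at 257 and 283 CPM. Neither was free of suprabasal ones, as early suprabasal genes summed to 5371 and 5951 CPM. A suprabasal limit of 5 in place of 15 left 105 cycling cells and 15 cells without the markers. Summed fibroblast markers (7 of 9 in the table) stood at 775 and 767 CPM, nearly all from Dcn and Postn, while Col1a1 had 4.60 CPM in cycling cells and 0 UMIs in cells without the markers. Endothelial, immune, muscle, erythroid and Merkel cell markers summed to 1.67 CPM or less each in cycling cells and to 4.60 CPM or less each in cells without the markers. Schwann cell markers summed to 18.6 and 10.3 CPM, and periderm markers to 226 and 256 CPM. Melanoblast markers (6 of 7 in the table) summed to 101 CPM in cycling cells and 8.05 CPM in cells without the markers, and 12 cycling cells but 0 of the others had 3 or more UMIs of Dct, Pmel and Mlana. Without those 12 cells Dct stood at 1.07 CPM in cycling cells, against 4.60 CPM in cells without the markers, so it is not given as a difference between the classes.

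The label resting was not used for the cells without the markers, which are called marker-negative here. Whether they were outside the cycle was not tested. By the rule, Mki67, Top2a and Ccnb1 stood at 147, 474 and 237 CPM in cycling cells and had 0 UMIs in marker-negative cells. Genes of replication origins and forks summed to a median of 44.5 UMIs per thinned cycling cell, against 35 per marker-negative cell. In 18 of the 87 marker-negative cells (20.7%, exact 95% interval 12.7 to 30.7%) this sum was at or over the median of the cycling cells. For 74 genes of mitotic kinases, kinetochores and spindles, tubulins and Stmn1 left out, the medians were 62 UMIs in cycling and 12 in marker-negative cells. Of the 87 marker-negative cells 0 reached the cycling median (exact 95% interval up to 4.15%). With tubulins and Stmn1 kept, the spindle list alone had a median of 35 UMIs per marker-negative cell. Its median was 60 UMIs per cycling cell with 5 to 9 UMIs of Mki67 and Top2a, and 111 with 30 or more. The cells were chosen by genes of the same wave, so the size of this gap is not independent of the rule. Cycling cells made up 43.9% (40.9 to 46.9%) of basal cells and marker-negative cells 8.35% (6.77 to 10.2%). With the classes set after thinning, the cycling share was 28.98% and marker-negative cells numbered 169 in place of 91, so both depend on depth. At the edge of the rule, summed mitotic kinase genes stood at 1479 CPM in the 33 cells with exactly 5 UMIs of Mki67 and Top2a and 1558 CPM in the 59 cells with exactly 4. Histone genes summed to 14736 and 16303 CPM and early suprabasal genes to 6248 and 5395 CPM in the same cells, with counting intervals that did not overlap.

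Of 7444 genes with a mean of 10 CPM or more, 814 (10.9%) were 1.5-fold or more higher in cycling cells and 444 (5.96%) 1.5-fold or more lower, and the median log2 ratio of all genes was 0.02. In the placode-enriched libraries edgeR's quasi-likelihood test called 577 of 9767 genes higher (5.91%) and 367 lower (3.76%) in cycling cells (Benjamini-Hochberg adjusted p under 0.05, library as a block, 2 libraries), among cells that had passed the MAdCAM-1 gate. Of the 811 genes past the fold upward in total epithelium other than those of the rule, edgeR tested 808 and called 298 in the same direction (36.9% of these, and 52.0% of its own 573). The 1 gene called in the opposite direction was Vim, an intermediate filament gene, at 103 CPM in cycling and 24.1 CPM in marker-negative cells of total epithelium. Without the 12 cells with melanoblast transcripts Vim stood at 15.9 CPM in cycling cells (log2 ratio -0.60). Of the 444 past the fold downward, it tested 438 and called 34 lower (7.76% of these, and 9.26% of its own 367) and 2, Clu and Tbrg4, higher. DESeq2, run on the same sums with the same block, called 171 genes higher and 37 lower, and edgeR without the block called 366 and 117. Both dropped the calls of Vim, Clu and Tbrg4, and other named calls that DESeq2 dropped are marked beside them. For genes of 10 to 25 CPM the upper bound of the interval lay a median of 1.93 times above the ratio, and 325 of the 444 lower genes were of that level, as were 480 of the 811 higher ones, so both sets are mostly of small counts.

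**Figure D1:**
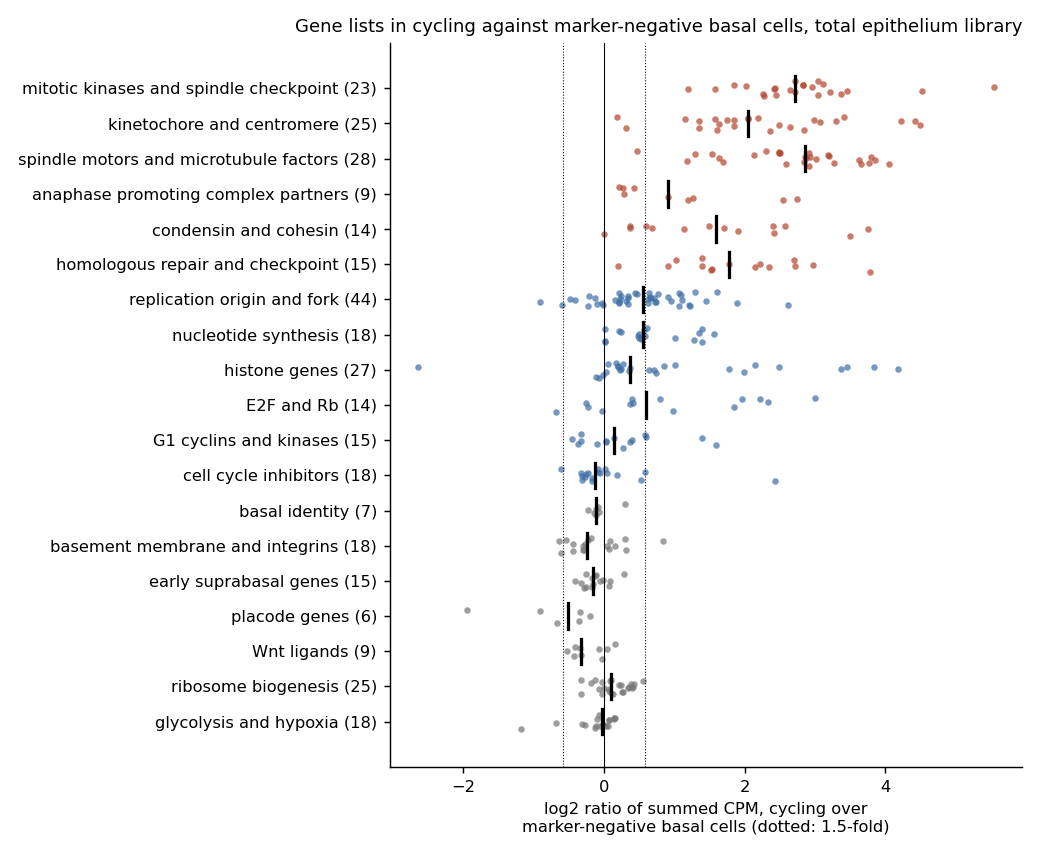
Log2 ratio of summed CPM, cycling over marker-negative basal cells of the total epithelium library, for each gene of 19 lists (points; number of genes with a mean of 10 CPM or more in parentheses), with the list's median (bars) and the 1.5-fold limits (dotted). Mitotic lists lie almost wholly to the right, replication genes straddle the limit, and basal identity genes lie near 0.

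The genes of mitosis were higher in cycling cells as whole groups. Mki67, Top2a and Ccnb1 belong to the same wave, so the counts below, edgeR's included, are not independent of the rule. All 23 measured mitotic kinase and spindle checkpoint genes were past the fold upward (median log2 ratio 2.71), against 10.9% of all genes, and edgeR called 23 of 23 higher in the placode-enriched libraries. Their summed level was 2647 CPM in cycling, 943 CPM in in-between and 513 CPM in marker-negative cells. Plk1, the kinase that helps build the spindle poles and promotes mitotic entry, stood at 104 CPM in cycling and 12.6 CPM in marker-negative cells, a ratio of 8.21 (4.55 to 16.5). In placode-enriched library 1 it was 114 against 15.3 CPM and in library 2 98.9 against 2.99 CPM, and edgeR gave a log2 fold change of 3.60 ± 0.28 (SE, adjusted p = 2.5e-34). Aurora kinase A (Aurka) stood at 95.6 against 10.3 CPM and Aurkb, of the chromosomal passenger complex, at 129 against 14.9 CPM. Cdk1, the kinase partner of the mitotic cyclins, was measured at 317 CPM in cycling and 48.3 CPM in marker-negative cells (log2 ratio 2.71), and Ccna2, the cyclin of S and G2, at 164 and 23.0 CPM.

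Cdca5, or sororin, which protects sister chromatid cohesion, had the highest ratio of its list, with 256 UMIs in cycling and 1 UMI in marker-negative cells (46.6, interval 8.29 to 1847). Ccnf, an F-box cyclin, had 253 and 2 UMIs (23.0, interval 6.31 to 191). Such ratios rest on 1 or 2 UMIs, and their size is known only as far as the intervals. In placode-enriched libraries 1 and 2 Cdca5 stood at 44.7 and 47.7 CPM in cycling cells, against 5.08 and 0 CPM in marker-negative cells (edgeR log2 fold change 4.25 ± 0.47, adjusted p = 3.49e-17), a call that DESeq2 dropped (log2 fold change 4.82).

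Kinetochore and centromere genes were past the fold upward in 23 of 25 cases (median log2 ratio 2.05), and edgeR called 24 of 25 higher. Cenpf, a large kinetochore protein of G2 and mitosis, stood at 203 CPM in cycling and 24.1 CPM in marker-negative cells, and Cenpe, the kinetochore motor, at 97.5 and 9.20 CPM. Cenpa, the histone that marks the centromere, differed less, with 211 against 58.6 CPM (log2 ratio 1.85). Spindle motors and microtubule factors were past the fold in 27 of 28 cases (median 2.86), and edgeR called 31 of 31 higher. Kif11, the motor that parts the spindle poles, stood at 52.1 against 6.90 CPM. Kif23, of the central spindle, stood at 56.9 against 4.60 CPM and Hmmr, a spindle assembly factor, at 76.2 against 4.60 CPM. The tubulin gene Tuba1c had 94.98 against 12.6 CPM, while the microtubule destabiliser Stmn1, high in both classes, had 1674 against 1209 CPM (log2 ratio 0.47), inside the fold.

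Partners of the anaphase promoting complex, the ligase that ends mitosis, were past the fold upward in 5 of 9 cases and downward in none. The activator Cdc20 stood at 207 CPM in cycling and 35.6 CPM in marker-negative cells and the ubiquitin-conjugating enzyme Ube2c at 438 and 65.5 CPM. The core subunit Anapc11 had 208 and 155 CPM (log2 ratio 0.42), inside the fold. The 5 were Cdc20, Ube2c, Ube2s, Fzr1 and Cdc27, a core subunit as well, and edgeR called 7 of 10 higher. Condensin and cohesin genes followed, with 11 of 14 past the fold upward. The condensin subunits Smc2 and Smc4 stood at 192 and 301 CPM in cycling cells, against 32.2 and 56.3 CPM in marker-negative cells, and the cohesin subunit Rad21 at 116 against 52.9 CPM.

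The promoters of these mitotic genes are shown because the genes moved together and many carry the letters of the cell cycle genes homology region, an element at which the MuvB complex acts. TTTGAA or TTCGAA was searched on both strands from 100 bases before to 50 after each start in the RefSeq promoters of GRCm38.p6. It was present in 42 of the 74 mitotic, kinetochore, spindle and anaphase genes with a promoter (56.8%), against 7.06% of the 6032 genes at the level that had one. CCAAT, the box of the NF-Y factor, was present in 66.2% of the same genes, against 30.3%. It was also present in 57.6% of the 33 replication origin and fork genes with a promoter, so it did not set the mitotic genes apart from those. These are matches of letters, not sites shown to be bound. The sequences are the 120 bases before the start of the 4 genes with the highest ratios among 13. These 13 had a single promoter and a match within 60 bases of the start. Genes of a chromosome left out of the choice beforehand are not among them. Capitals mark TTTGAA or its reverse complement TTCAAA, and each is written 5′ to 3′ on the strand of the gene. Cdca5 lies on the plus strand at chr19:6084977-6085096, Ccnf on the minus strand at chr17:24251410-24251529, Ckap2l, a spindle protein gene, on the minus strand at chr2:129297213-129297332, and Kif11 on the plus strand at chr19:37376262-37376381.
Cdca5: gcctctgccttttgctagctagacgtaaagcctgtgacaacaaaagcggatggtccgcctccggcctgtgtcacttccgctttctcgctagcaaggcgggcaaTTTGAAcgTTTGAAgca
Ccnf: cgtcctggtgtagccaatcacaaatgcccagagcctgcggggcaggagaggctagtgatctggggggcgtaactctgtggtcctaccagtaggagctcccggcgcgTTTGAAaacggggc
Ckap2l: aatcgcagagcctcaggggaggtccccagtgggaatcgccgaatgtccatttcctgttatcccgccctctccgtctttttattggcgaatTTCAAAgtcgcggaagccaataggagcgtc
Kif11: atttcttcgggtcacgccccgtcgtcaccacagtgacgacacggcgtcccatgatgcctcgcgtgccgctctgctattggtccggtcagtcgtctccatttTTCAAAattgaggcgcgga

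Replication genes differed in both directions. Of 44 measured genes of origins and forks, 22 were past the fold upward and 2 downward, with a median log2 ratio of 0.55, and edgeR called 27 of 46 higher and 3 lower. Among the higher ones were genes that act at running forks and an inhibitor of licensing. Clspn, the fork checkpoint mediator, stood at 56.3 CPM in cycling and 9.20 CPM in marker-negative cells (6.12, interval 3.06 to 14.3), and Cdc45, which activates the helicase, at 46.9 and 12.6 CPM. The sliding clamp Pcna had 260 against 160 CPM (1.63, interval 1.37 to 1.96), the flap endonuclease Fen1 104 against 49.4 CPM, and Gmnn, or geminin, which blocks a second licensing, 215 against 101 CPM. edgeR gave these 5 genes log2 fold changes of 1.16 to 3.06 in the placode-enriched libraries, each with an adjusted p of 3e-06 or less, and DESeq2 dropped the call of Cdc45.

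A few genes of origin licensing and firing were lower in cycling cells, but others were not. Cdc6 stood at 14.9 CPM in marker-negative cells of total epithelium. It stood at 46.8 CPM in cycling cells with 5 to 9 UMIs of Mki67 and Top2a and 28.2 CPM with 10 to 19. With 20 to 29 and with 30 or more UMIs it stood at 13.1 and 2.13 CPM. Mcm5 had 123 CPM in marker-negative cells and 183, 153, 112 and 97.9 CPM over the same bins. Gins2, of the GINS complex that joins the helicase, stood at 64.0 CPM in cycling and 121 CPM in marker-negative cells (0.530, interval 0.424 to 0.669). It was 58.3 against 102 CPM in placode-enriched library 1 and 59.4 against 107 CPM in library 2, with an edgeR log2 fold change of -0.83 ± 0.16 (adjusted p = 5.84e-06). The helicase subunits Mcm2 and Mcm4 were 98.1 and 108 CPM in cycling cells, against 131 and 152 CPM in marker-negative cells, inside the fold in total epithelium. edgeR called both lower, by -0.71 ± 0.15 for Mcm2 (adjusted p = 3.3e-05) and -0.43 ± 0.15 for Mcm4 (adjusted p = 0.0442). DESeq2 dropped the calls of Gins2, Mcm2 and Mcm4, with log2 fold changes of -0.83, -0.70 and -0.41, and the edgeR fit without the block dropped that of Mcm4. Ung, a uracil glycosylase, was past the fold downward in total epithelium (69.7 against 106 CPM), but edgeR gave it -0.11 ± 0.16 (adjusted p = 0.788). Mcm6 and the chromatin remodeler Hells stood at 162 and 120 CPM in cycling cells, against 177 and 121 CPM in marker-negative cells. With the classes set after thinning, log2 ratios in total epithelium were -0.74 for Mcm2, -0.83 for Mcm4 and -0.59 for Mcm6, each past the fold downward, and -0.34 for Hells.

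**Figure D2:**
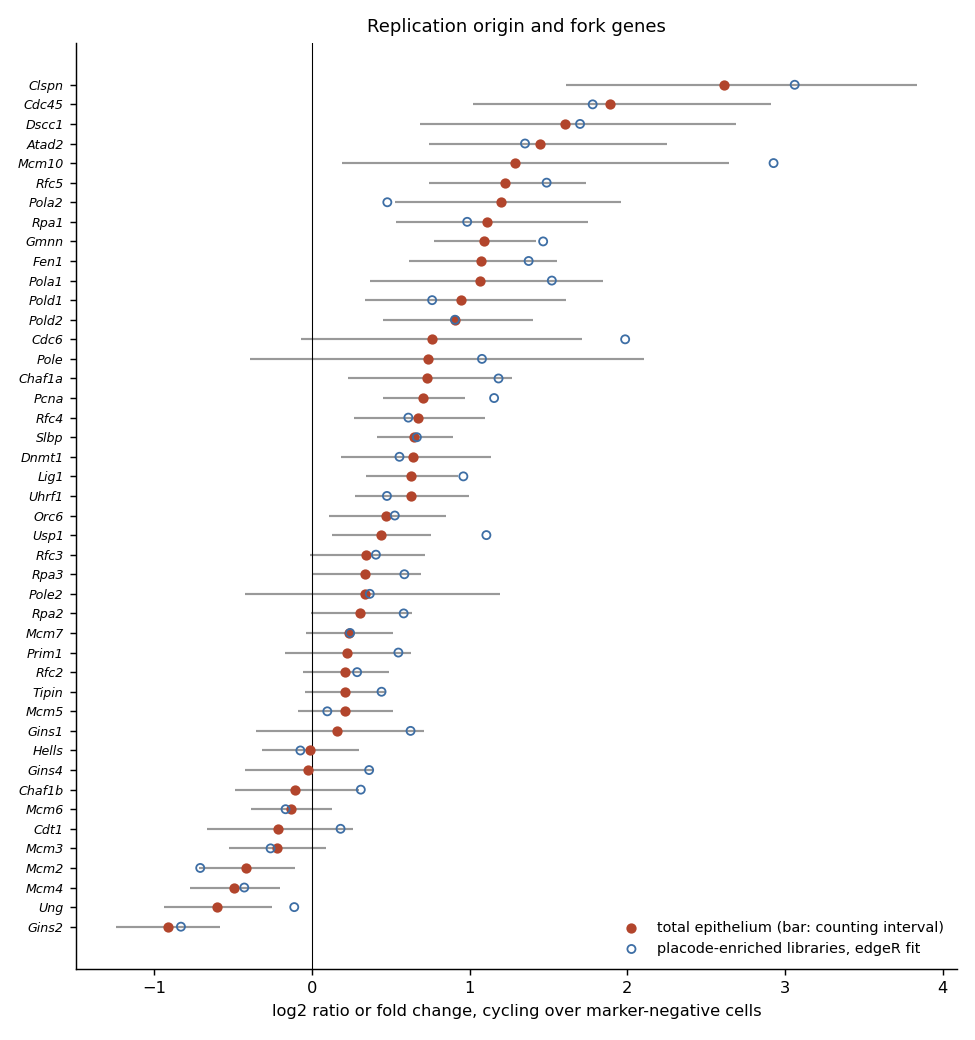
Log2 ratio of each replication origin and fork gene in the total epithelium library (filled points, bars: exact 95% counting interval) and edgeR's log2 fold change in the placode-enriched libraries (open points), cycling over marker-negative cells. Clspn and Cdc45 lie at the top and Gins2, Ung, Mcm4 and Mcm2 at the bottom in total epithelium.

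Within the cycling cells the 2 waves ran apart along the summed UMIs of Mki67 and Top2a. The summed replication genes stood at 3479 CPM in marker-negative and 3770 CPM in in-between cells. They stood at 5281 CPM in the 109 cells with 5 to 9 UMIs of the 2 markers, 4971 CPM with 10 to 19, 3792 CPM with 20 to 29, and 2962 CPM in the 47 cells with 30 or more. Over the same 6 bins the mitotic kinase genes stood at 513, 943, 1765, 2515, 3122 and 3728 CPM. Ccne2, an E cyclin, followed the first pattern with 68.8 and 71.2 CPM at 5 to 19 UMIs and 19.1 CPM at 30 or more. Cells with more UMIs of the markers were also deeper before thinning, with medians of 22714 UMIs in the bin of 5 to 9 and 34080 in that of 30 or more. The bins are therefore a description of 1 library along the rule's own genes.

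**Figure D3:**
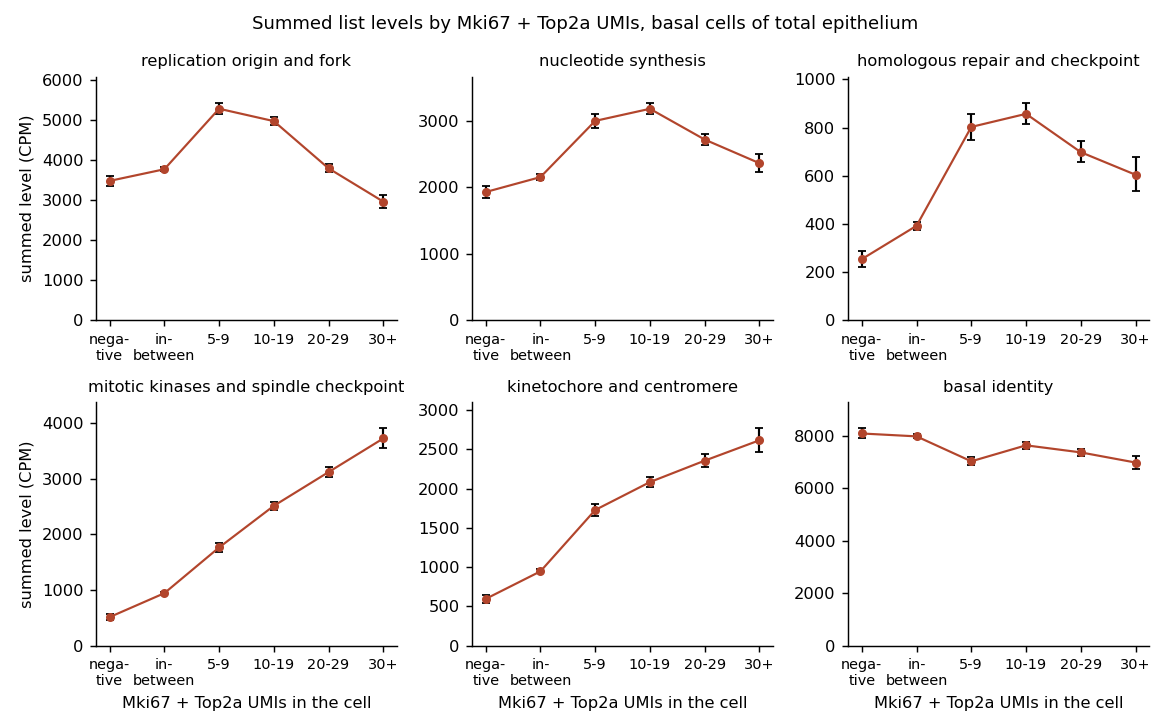
Summed level (CPM, points with exact 95% counting intervals) of 6 gene lists, total epithelium basal cells, by UMIs of Mki67 and Top2a in the cell, with marker-negative and in-between cells at the left. Replication genes are highest at 5 to 9 UMIs, mitotic kinase genes at 30 or more, and basal identity genes change least.

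E2F-type letters TTTCCCGC or TTTGGCGC were searched in the same way and were present in 8 of the 33 replication genes with a promoter (24.2%), against 2.22% of all genes. The element TTTGAA or TTCGAA was present in 6.06% of the replication genes. The promoters of Hells and Mcm6 are printed as replication genes that were inside the fold in total epithelium, Mcm6 not with the classes set after thinning. They are the 2 genes with a single promoter and a match within 120 bases of the start, outside the chromosome left out above. The match is in capitals. Hells lies on the plus strand at chr19:38930870-38930989 and Mcm6 on the minus strand at chr1:128359706-128359825.
Hells: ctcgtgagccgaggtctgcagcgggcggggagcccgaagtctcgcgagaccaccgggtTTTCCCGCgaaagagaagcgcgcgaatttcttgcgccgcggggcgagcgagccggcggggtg
Mcm6: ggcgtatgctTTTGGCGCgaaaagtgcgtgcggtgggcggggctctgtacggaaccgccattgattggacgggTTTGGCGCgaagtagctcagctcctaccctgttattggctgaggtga

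Of 18 nucleotide synthesis genes 7 were past the fold upward and none downward (median log2 ratio 0.55), and edgeR called 8 higher. The ribonucleotide reductase subunit Rrm2 stood at 235 CPM in cycling and 89.7 CPM in marker-negative cells, and thymidylate synthase (Tyms) at 264 and 101 CPM. Impdh2, of guanine nucleotide synthesis, had a log2 ratio of 0.01 and Paics, of purine synthesis, 0.02. Homologous repair and checkpoint genes were past the fold upward in 14 of 15 cases (median 1.78), and edgeR called 13 of 20 higher. The checkpoint kinase Chek1 had 26.8 CPM in cycling and 9.20 CPM in marker-negative cells, but edgeR gave a log2 fold change of 0.56 ± 0.31 (adjusted p = 0.293).

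Among E2F and Rb family genes, with Foxm1 and Mybl2 listed beside them, 7 of 14 were past the fold upward and 1 downward. edgeR called 5 of 18 higher. Foxm1, Mybl2 and the repressors E2f7 and E2f8 differed in both settings. Foxm1 stood at 18.4 CPM in cycling and 2.30 CPM in marker-negative cells, and Mybl2 at 32.0 and 6.90 CPM. E2f7 stood at 20.7 and 5.75 CPM and E2f8 at 28.9 and 5.75 CPM. Along the markers Mybl2 fell, from 48.6 CPM at 5 to 9 UMIs of Mki67 and Top2a to 10.6 CPM at 30 or more. edgeR called Foxm1, Mybl2, E2f7 and E2f8 higher, with log2 fold changes of 3.80, 2.79, 1.66 and 2.92, and DESeq2 dropped all 4 calls. The fifth gene that edgeR called was E2f2 (3.36), too low for the fold in total epithelium, and the gene past the fold downward was Tfdp2 (22.8 against 36.8 CPM), which edgeR gave 0.06. The Rb partner E2f4 and the activator E2f3 lay inside the fold (log2 ratios 0.41 and 0.40).

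Of 15 G1 cyclins and kinases 3 were past the fold upward and none downward, with a median log2 ratio of 0.14. They were the E cyclins Ccne1 (57.3 CPM in cycling and 21.8 CPM in marker-negative cells) and Ccne2 (52.1 and 17.2 CPM), and Cdk6 at a log2 ratio of 0.60. edgeR called Ccne1 (1.77, adjusted p = 3.39e-06) and Ccne2 (2.67, adjusted p = 2.4e-09) higher, but not Cdk6 (0.50), and DESeq2 dropped both calls. The D cyclin of the basal layer, Ccnd2, stood at 639 CPM in cycling, 775 CPM in in-between and 689 CPM in marker-negative cells. edgeR called it lower by a small size in the placode-enriched libraries, -0.16 ± 0.06 (adjusted p = 0.0487), a call lost with DESeq2, with no filter on low counts, without the block and with all 3 libraries. Its partner Cdk4 had 704 and 640 CPM. The marker-negative cells thus held D cyclin and its kinase near the level of cycling cells.

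Of 18 cell cycle inhibitors 1 was past the fold upward and 1 downward, and 12 had a log2 ratio below 0 (median -0.12), and edgeR called 2 of 23 higher and 2 lower. Cdkn2d, or p19Ink4d, an inhibitor of Cdk4 and Cdk6, was the one that was higher, at 31.0 CPM in cycling and 5.75 CPM in marker-negative cells (5.39, interval 2.26 to 16.8). It stood at 28.3 against 11.9 CPM in placode-enriched library 1 and 26.7 against 4.48 CPM in library 2 (edgeR 1.78 ± 0.38, adjusted p = 8.44e-05; dropped by DESeq2 at 1.83). Its relative Cdkn2c, too low for the fold in total epithelium, was called higher as well (3.40). Gadd45a, a stress-induced inhibitor, stood at 11.3 CPM in cycling and 17.2 CPM in marker-negative cells, with an interval of the ratio that included 1 (0.364 to 1.25), and edgeR called it lower (-0.79 ± 0.27, adjusted p = 0.0377), a call lost with DESeq2, with no filter and without the block. Btg1, an antiproliferative gene, stood at 296 CPM in cycling and 354 CPM in marker-negative cells, and edgeR called it lower (-0.53 ± 0.07, adjusted p = 4.26e-13). The inhibitors Cdkn1c (161 and 141 CPM) and Cdkn1b (21.5 and 14.9 CPM) had intervals of their ratios that included 1, 0.941 to 1.39 and 0.807 to 2.80.

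Histone genes held large differences in both directions. Of 27 genes 13 were past the fold upward and 1 downward, and edgeR called 19 of 29 higher and 2 lower. Most histone mRNAs made for replication end without a poly(A) tail, so a 3′ poly(A) method catches them in part, and reads of near-identical copies can be split between them. Hist1h2ap, an H2A gene, stood at 1831 CPM in cycling, 129 CPM in in-between and 101 CPM in marker-negative cells (18.1, interval 14.7 to 22.6). The linker histone Hist1h1b stood at 115 and 8.05 CPM in cycling and marker-negative cells. In placode-enriched libraries 1 and 2 Hist1h2ap had 648 and 340 CPM in cycling cells, against 47.5 and 28.4 CPM in marker-negative cells (edgeR 3.70 ± 0.14, adjusted p = 2.55e-147). The replacement histones differed less than Hist1h2ap and Hist1h1b: H2afz stood at 2613 and 1441 CPM and H2afx at 483 and 122 CPM. H3f3b, at 2666 and 2090 CPM, was inside the fold. The log2 ratios of H2afz (0.86) and H2afx (1.99) lay above the median of the 27 histone genes (0.37).

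Hist1h2bc, an H2B gene, ran the other way. It stood at 12.3 CPM in cycling, 63.4 CPM in in-between and 77.0 CPM in marker-negative cells (0.160, interval 0.111 to 0.231). It was 8.19 against 66.1 CPM in placode-enriched library 1 and 10.97 against 62.7 CPM in library 2 (edgeR -2.73 ± 0.25, adjusted p = 9.62e-26). The level was thus lower in cycling cells in each of the 3 libraries. Along the markers it had 22.02 CPM at 5 to 9 UMIs, 9.60 CPM at 10 to 19, 10.3 CPM at 20 to 29 and 6.38 CPM at 30 or more. It was thus low in the bins in which Hist1h2ap was high. The other histone gene that edgeR called lower was Hist3h2ba (-0.67), which had a log2 ratio of -0.11 in total epithelium and was dropped by DESeq2.

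**Figure D4:**
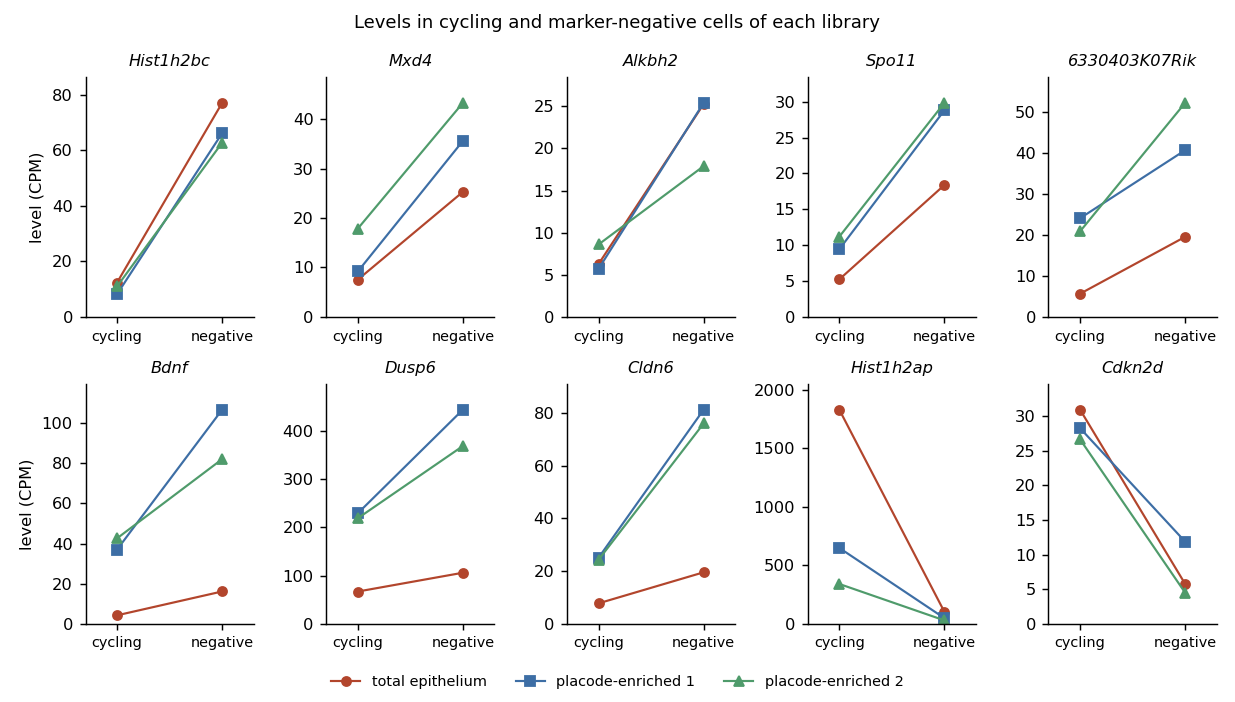
Level (CPM) in cycling and marker-negative cells of 10 genes, with 1 line for each of the 3 libraries and an axis from 0 in each panel. The first 8 genes are lower in cycling cells of every library, and Hist1h2ap and Cdkn2d are higher.

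All 7 basal genes lay inside the fold (median log2 ratio -0.11), and their sum was 7354 CPM in cycling and 8091 CPM in marker-negative cells. Krt5 stood at 1573 and 1698 CPM, with a ratio of 0.927 (0.876 to 0.980), and Krt15 at 2277 and 2664 CPM, with a ratio of 0.855 (0.817 to 0.894). In the placode-enriched libraries edgeR called Krt5 (0.21) and Krt15 (0.26) higher in cycling cells, the opposite sign, and Krt14 lower by -0.11 (adjusted p = 0.0255). These 3 calls were lost with DESeq2, without the block and with all 3 libraries in the fit. Basement membrane and integrin genes were past the fold in 1 case upward (Hspg2, perlecan) and 2 downward (Itgav and Plec), of 18. Counts this small cannot set the list apart from all genes, of which 10.9% were past it upward and 5.96% downward. Plec had the opposite sign in both placode-enriched libraries. There edgeR called 1 of 22 genes of the list lower (Frem1, of the Fraser complex, dropped by DESeq2). None of the 15 early suprabasal genes was past the fold (median -0.16). Genes of nuclear lamina, pores and chromatin were past the fold upward in 10 of 23 cases, among them the lamin B receptor Lbr (80.3 CPM in cycling and 41.4 CPM in marker-negative cells) and the Polycomb methylase Ezh2 (141 and 81.6 CPM), and edgeR called 15 higher; DESeq2 dropped the calls of Lbr and Ezh2.

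Of 6 placode genes at the level 3 were past the fold downward, Dusp6, Bdnf and Sox9, and edgeR called 9 of 15 lower. Dusp6, a phosphatase induced by Fgf signalling, stood at 66.7 CPM in cycling and 106 CPM in marker-negative cells (0.631, interval 0.499 to 0.805), and the growth factor Bdnf at 4.18 and 16.1 CPM (0.260, interval 0.125 to 0.556), from 20 and 14 UMIs. In placode-enriched libraries 1 and 2 Dusp6 had 229 and 219 CPM in cycling cells, against 444 and 369 CPM in marker-negative cells (edgeR -0.85 ± 0.08, adjusted p = 2.69e-22). Bdnf had 37.0 and 42.6 CPM, against 107 and 82.1 CPM (edgeR -1.23 ± 0.18, adjusted p = 1.75e-10). edgeR did not call Sox9 (0.04), whose ratio had an interval that included 1. Sostdc1, a Wnt and Bmp antagonist, was inside the fold at 529 against 670 CPM and called lower by edgeR (-0.53 ± 0.05). The rule keeps cells with placode transcripts below its limit, and the MAdCAM-1 gate enriched 2 of the libraries for placode cells; the part of such cells in these differences was not tested. Among total epithelium cells of 15000 to 30000 UMIs log2 ratios were 0.33 for Dusp6, 0.0733 for Sox9, 0.0391 for Sostdc1 and -1.24 for Bdnf, and with the classes set after thinning they were -0.13, -0.30, -0.0827 and -0.86. With the suprabasal limit of 5, which left 15 marker-negative cells, the log2 ratio of Bdnf was 0.36. The direction of Dusp6, Bdnf, Sox9 and Sostdc1 in total epithelium thus depends on the cells kept.

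Counts of signalling and metabolic genes past the fold, like those of the lists above, stand beside 10.9% of all genes upward and 5.96% downward. Counts called by edgeR stand beside 5.91% higher and 3.76% lower. Most of the signalling and metabolic lists are small. None of 9 Wnt ligands (median log2 ratio -0.32) and 11 Wnt feedback and target genes (-0.10) was past it. Wnt6 stood at 380 and 482 CPM and Wnt4 at 165 and 174 CPM in cycling and marker-negative cells. Of 25 ribosome biogenesis genes none was past the fold (median 0.10), and of 18 glycolysis and hypoxia genes 2 were, downward: Hk2 (28.7 against 46.0 CPM) and Aldoc (7.11 against 16.1 CPM). Of 11 immediate early and heat shock genes 2 were past the fold upward, Hsph1 (38.7 against 23.0 CPM) and Hspa8. The chaperone Hspa8 was 1.58 times higher in cycling cells (2255 against 1428 CPM, edgeR 0.54 ± 0.04, adjusted p = 7.07e-34). Of 13 genes of division orientation 3 were past the fold upward (Gpsm2, Pard3 and Dlg1) and 1 downward (Gnai1), and edgeR called 1 of 16 higher. Gpsm2, which links the spindle to the cell cortex, stood at 66.1 CPM in cycling and 40.2 CPM in marker-negative cells. In placode-enriched libraries 1 and 2 Gpsm2 had 79.7 and 64.5 CPM, against 30.5 and 23.9 CPM (edgeR 1.41 ± 0.23, adjusted p = 3.67e-08). Of 13 junction genes 2 were past the fold downward (Cldn1 and Cldn6) and 1 upward (Ctnnd1), and edgeR called 5 of 21 lower (Ctnnb1, Cldn4, Cldn6, Cldn7 and Marveld2), of which DESeq2 dropped Cldn4 and Cldn7. Cldn6, a claudin, was in both sets, with 7.74 CPM in cycling and 19.5 CPM in marker-negative cells of total epithelium (edgeR -1.67 ± 0.20, adjusted p = 5.64e-15). Genes past the fold in pathway lists included, upward, Jag1 (Notch), Gli2 (Hedgehog), Relb (Eda and NF-kB), Id2 (Bmp), Tead1 (YAP targets) and Igf2r (growth factors), and, downward, Notch2 beside Dusp6. edgeR's adjusted p for these 7 genes other than Dusp6 was 0.152 or more.

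Outside all lists, the 12 genes with the highest ratio in cycling cells were all called higher by edgeR in the placode-enriched libraries, and DESeq2 dropped the calls of Oip5, Mns1 and Hist1h2ak. Many have known mitotic or replication roles. They were Oip5, of centromere loading, Depdc1a, Mns1, Aunip, the mitotic kinase Pbk, Cdca2, Hist1h2an, Hist1h2ak, the DNA glycosylase Neil3, the importin Kpna2, Fam64a and 2810417H13Rik. The last, the PCNA-associated factor now named Pclaf, had the largest level, at 787 CPM in cycling, 200 CPM in in-between and 96.6 CPM in marker-negative cells (8.15, interval 6.56 to 10.2). It had 801 and 702 CPM in cycling cells of placode-enriched libraries 1 and 2, against 81.4 and 56.7 CPM in marker-negative cells (edgeR 3.46 ± 0.11, adjusted p = 5.26e-211). Pbk stood at 161 against 10.3 CPM and Kpna2 at 168 against 18.4 CPM. Ratios of Oip5, Depdc1a and Mns1 (22.6, 20.9 and 19.7) rest on 1 UMI each in marker-negative cells, and their intervals run from 3.98, 3.68 and 3.45 upward.

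Of the 12 genes with the lowest ratio, edgeR called 4 lower, and DESeq2 dropped all 4 calls at log2 fold changes of -1.04 to -1.60. Mxd4, a Max partner that opposes Myc, stood at 7.53 CPM in cycling and 25.3 CPM in marker-negative cells (0.298, interval 0.171 to 0.531), and at 9.18 and 17.8 CPM in placode-enriched libraries 1 and 2, against 35.6 and 43.3 CPM (edgeR -1.52 ± 0.27, adjusted p = 7.44e-07). Alkbh2, a DNA alkylation repair enzyme, stood at 6.28 against 25.3 CPM (edgeR -1.56 ± 0.37, adjusted p = 0.000692). Spo11, the meiotic DNA cutting enzyme, stood at 5.23 against 18.4 CPM from 25 and 16 UMIs (edgeR -1.50 ± 0.32, adjusted p = 8.08e-05). Thinned to 5000 UMIs the total epithelium log2 ratio of Spo11 was 0.41, so its direction in that library is not stable. The gene 6330403K07Rik stood at 5.65 against 19.5 CPM (edgeR -1.06 ± 0.23, adjusted p = 0.000114). The other 8, C920006O11Rik, E030030I06Rik, Fam109a, Mcm9, Endov, Slc27a4, Ankrd22 and Wars2, rested on 13 to 20 UMIs in marker-negative cells, and edgeR's adjusted p for them was 0.089 or more.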

How the data were processed

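The deposited tables hold raw, whole-number UMI counts (genes by cells), per the file headers; the submitters' processing notes name Cell Ranger, Seurat and mm10 without versions, and no source used here gives the authors' cell filters, annotation or strand setting. The number ending each barcode in the shared placode-enriched table was taken as its library. The 3 libraries held 1601, 1511 and 1571 cells, with medians of 21977, 21652 and 23419 UMIs, and shared 1, 1 and 2 barcodes. Doublets were called by scoring cells against simulated pairs at an expected rate of 0.05; the 8, 2 and 2 removed are few, so doublets can remain.

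Cells were classed on all their UMIs, thinned without replacement to 10000 UMIs, and summed by class. Ratios carry exact conditional 95% intervals of counts, with a floor of 3 counts where a class had 0. UMIs count molecules rather than PCR copies, and intervals cover counting error only. edgeR 4.0.16 (R 4.3.3; TMM scaling, filterByExpr, quasi-likelihood test) compared 4 sums, 2 classes in each of 2 placode-enriched libraries, with the library as the block since each library gives both classes; DESeq2 1.42.0 was an alternative. With only these 4 sums from 2 libraries, very small adjusted p-values and SEs are no close measure of the spread between animals. The scripts (Python 3.11.15) were tested on simulated data. Genes named are members of the lists, the 12 highest and 12 lowest ratios outside them, and members of counts of 5 or fewer, which were chosen after their values were seen; some genes counted in the lists are not reported here. The members and lists were chosen with earlier results of these data known.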

Additional observations from a re-analysis of the deposited data

Results flagged for a closer look

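Results in which the total epithelium library went one way and both placode-enriched libraries the other were singled out; the difference between the libraries was not tested, and several rest on few counts. Among basal and junction genes, log2 ratios of cycling over marker-negative cells in total epithelium were -0.11 for Krt5, -0.23 for Krt15, -0.65 for Plec, -0.99 for Cldn1, 0.61 for Ctnnd1, 0.10 for Ctnnb1 and 0.16 for Cldn4, each with the opposite sign in both other libraries. Krt5 and Krt15 were lower in cycling cells of total epithelium and higher in those of the placode-enriched libraries. Signalling and polarity genes of this kind were Jag1 (1.18), Igf2r (0.68) and Dlg1 (1.03), all higher in cycling cells of total epithelium alone. The others were Hsph1 (0.75), Clu (-0.78), Tbrg4 (-0.71) and Slc27a4 (-1.36). For Vim the total epithelium value was 2.09, and it was -0.60 once 12 cycling cells with melanoblast transcripts were left out.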

How the results depend on the processing

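Total epithelium values come from 1 library and at most 91 marker-negative cells, so intervals cover counting error and not animals, and genes under 25 CPM are poorly resolved. Counts of 814 higher and 444 lower genes became 324 and 80 at a fold of 2, 334 and 119 at a mean level of 25 CPM, and 1548 and 1560 with a suprabasal limit of 5, which left 105 and 15 cells. Lower genes numbered 743 at 5 CPM, 752 when thinned to 5000 UMIs and 244 when not thinned. The share of higher genes among those past the fold was 64.7%, 80.2% at a fold of 2 and 49.8% with the suprabasal limit of 5. The cycling share of 43.9% became 28.98% with classes set after thinning, 55.7% with 3 or more UMIs of Mki67 and Top2a and 33.9% with 10 or more. edgeR's 577 higher and 367 lower genes became 171 and 37 with DESeq2 (1705 genes without an adjusted p), 366 and 117 with no replicate block, and 122 lower with no filter on low counts. Both classes come from each library, so the block pairs them by design, and the fit without it dropped, besides the calls of Vim, Clu and Tbrg4, those of Krt5, Krt14, Krt15, Mcm4, Ccnd2, Gadd45a, H3f3b, Frem1, Ctnnb1 and Cldn4. Of the named genes' recomputed log2 values in total epithelium 1319 were within their intervals and 117 moved beyond them. Another 16, of genes past the fold in the main setting, changed sign. Values of genes inside the fold that changed sign are among the first counts. Examples are Sostdc1 (0.0391 in cells of 15000 to 30000 UMIs), and Cldn4 (-0.44) and E2f3 (-0.21) with classes set after thinning. In the placode-enriched libraries 688 kept their direction and side of the threshold or moved by less than their error. There 124 moved beyond it, 65 lost and 16 gained a call, and 23 changed sign. The causes were not tested. The 16 total epithelium values counted as changed in sign were, when thinned to 5000 UMIs, Tbrg4 (0.26), Hspg2 (-0.10) and Spo11 (0.41). In cells of 15000 to 30000 UMIs they were Dusp6 (0.33) and Sox9 (0.0733). With classes set after thinning the value was that of Tfdp2 (0.00457), and without melanoblast transcripts that of Vim (-0.60). With the suprabasal limit of 5 they were Tfdp2 (0.19), Itgav (0.51), Spo11 (0.51), Plec (0.0506), Dusp6 (0.30), Bdnf (0.36), Dlg1 (-0.49), Hist1h2ak (-0.49) and Relb (0). In edgeR fits, all 3 libraries together changed the sign of Vim (0.18), Clu (-0.18), Tfdp2 (-0.19), Hspg2 (0.24), Plec (-0.067), Sox9 (-0.10), Hsph1 (0.21), Gnai1 (-0.40), Cldn1 (-0.28), Ctnnd1 (0.0303), Igf2r (0.0682), Mcm9 (-0.63) and Slc27a4 (-0.55). Without thinning this held for Tfdp2 (-0.14), Hspg2 (0.11), Itgav (0.0246), Hsph1 (0.29), Gnai1 (-0.000449), Ctnnd1 (0.0172), Relb (-0.25) and Id2 (-0.19), and with no filter for Hspg2 (0.0325). Krt14 ran from -0.226 to 0.00529 when either placode-enriched library was left out, against -0.11 with both.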
